A study of Mus musculus with 4 samples.

Results

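The platelet-derived growth factors (Pdgf) and their receptors were read by 14 of 45037 probe sets, those whose gene symbol in the platform annotation was exactly Pdgfa, Pdgfb, Pdgfc, Pdgfd, Pdgfra or Pdgfrb. These are 6 of the 18193 genes that had a probe set naming a single gene, with 4 ligand genes on 9 probe sets and 2 receptor genes on 5 probe sets. RNA was measured on 4 Affymetrix mouse arrays, 2 of Myc-depleted and 2 of control bronchoalveolar stem cells (BASCs), to ask which transcripts differ once c-Myc is depleted. All cells had been sorted from lungs of ICR mice aged 4 to 6 weeks by the absence of CD31 and CD45 and the presence of CD34 and Sca-1, and plated over irradiated mouse embryonic fibroblasts. For established cultures the paper's results name dishes coated with collagen, while its methods have them passaged onto embryonic fibroblasts. Which of these held for the arrays is not stated. By the treatment protocol in the labels, c-Myc was depleted with a lentiviral short hairpin RNA and puromycin selection over several generations, which gave stable lines. The control cells are labelled only as controls, and the paper calls them wild type. A control virus or selection is not described for these arrays, so that infection, selection and depletion cannot be told apart. The labels number the arrays of a group 1 and 2 without saying whether they came from separate cultures or which hairpin was used, and p-values here weigh differences only against how far arrays of a group lie apart, a spread that may be technical.

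Pdgf ligands are secreted as disulphide-linked dimers that bring receptor chains together and so switch on their tyrosine kinases. Pdgfa and Pdgfc act mainly through Pdgfra, Pdgfb binds both receptors, and Pdgfd acts mainly through Pdgfrb. Pdgfa and Pdgfb are cut by proprotein convertases such as furin inside the cell, whereas Pdgfc and Pdgfd carry a CUB domain that proteases such as tissue plasminogen activator remove outside it. In the lung, epithelium is known as a source of Pdgfa, and Pdgfra marks mesenchymal cells that include lipofibroblasts and the precursors of alveolar myofibroblasts, while Pdgfrb marks pericytes and other mural cells.

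The receptor gene Pdgfra was higher and the ligand gene Pdgfc lower in Myc-depleted than in control cells on every probe set of these genes, without any of them passing the adjusted threshold. On the log2 scale the 3 Pdgfra probe sets differed by 1.01 to 1.23, a 2.01- to 2.34-fold excess, and the 2 Pdgfc probe sets by -0.60 and -0.52, which left 65.9% and 69.7% of the control level. Pdgfrb differed by 0.41 and 0.44, with arrays of the groups overlapping on 1 of its 2 probe sets, and Pdgfa by 0.00 and -0.09. Pdgfb and Pdgfd lay under the low-value threshold on each of their probe sets. All values are log2 expression values, and a positive difference means a higher value in Myc-depleted cells. A probe set was tested where its mean over the 4 arrays reached the 40th percentile of all probe sets (log2 5.08), as 9 of the 14 did.

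**Figure D1:**
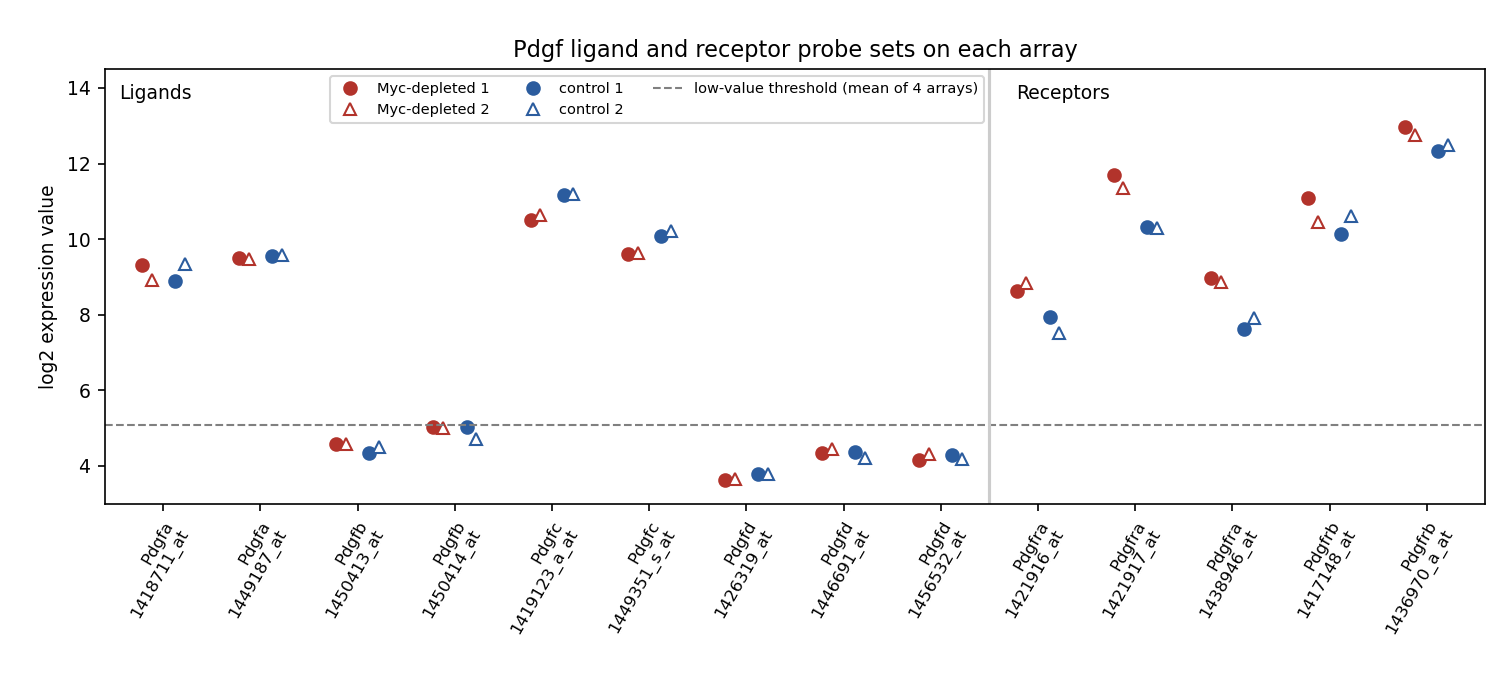
Log2 expression value (vertical axis) of the 14 Pdgf probe sets on each of the 4 arrays, with Myc-depleted arrays in red left of control arrays in blue and the low-value threshold of log2 5.08 for the mean of the 4 arrays as a dashed line. Both red points lie above both blue points for the 3 Pdgfra probe sets and below them for the 2 Pdgfc probe sets, and the 5 probe sets of Pdgfb and Pdgfd lie under the line.

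The series concerns a transcription factor that binds DNA, so the sequence before the transcript start is shown for the 2 genes with the most separated values. RefSeq (assembly GRCm38.p6) gave 5 windows for 4 of the 6 genes (Pdgfa, Pdgfc, Pdgfd and Pdgfra), and those of Pdgfra (chr5:75152001-75152250, plus strand) and Pdgfc (chr3:81036166-81036415, plus strand) hold the 250 bases that end at the base before the start. They are written 5′ to 3′ in lower case with motif matches in capitals. The Pdgfra window lies within the annotated span of the gene, downstream of its first annotated base.
Pdgfra: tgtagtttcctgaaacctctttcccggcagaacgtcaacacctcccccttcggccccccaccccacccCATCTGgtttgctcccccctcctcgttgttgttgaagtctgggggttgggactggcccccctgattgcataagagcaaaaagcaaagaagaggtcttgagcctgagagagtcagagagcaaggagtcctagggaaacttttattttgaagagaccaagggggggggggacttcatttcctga
Pdgfc: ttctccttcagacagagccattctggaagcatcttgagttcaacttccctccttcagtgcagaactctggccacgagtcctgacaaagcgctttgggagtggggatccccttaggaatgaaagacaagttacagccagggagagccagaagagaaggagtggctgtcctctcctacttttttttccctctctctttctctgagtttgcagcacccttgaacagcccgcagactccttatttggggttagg
Both strands were searched for the E-box CACGTG, to which Myc binds with its partner Max, the related CACGCG, the general E-box CANNTG (which includes CACGTG), and the common promoter letters TATAAA, the CAAT box as CCAAT, and the GC box as GGGCGG. The capitals in Pdgfra mark a CANNTG match that begins 182 bases before the start, and the Pdgfc window held none of the 6 motifs. CACGTG was in none of the 5 windows and in 6.02% of the 32851 windows of the whole table, CACGCG in none and in 7.62%, and CANNTG in 1 and in 66.2%. GGGCGG was in both Pdgfa windows and in 32.7% of all windows, and TATAAA in the Pdgfd window and in 12.4%. The CAAT box was in none and in 33.8%. A share of 54.4% of the Pdgfra and 50.8% of the Pdgfc window was G or C, beside a median of 52.4% over all windows. A match describes letters and not a bound site, and the absence of letters from 250 bases says nothing of the factor.

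Myc itself, read by 1 probe set, was at 8.35 and 8.50 on the Myc-depleted arrays, against 9.21 and 9.69 on the control arrays. It was lower on both Myc-depleted arrays, by a difference of -1.02 (49.2% of the control level), and did not pass the threshold (limma adjusted p = 0.363, unadjusted p = 0.00765). No probe set tested passed that threshold. The paper determined the c-Myc reduction of its stable lines separately, by real-time PCR for RNA and western blot for protein. The array medians lay between 5.48 and 5.49, and pairwise array correlations between 0.978 and 0.991. The 2 Myc-depleted arrays correlated at 0.981, less than Myc-depleted 1 with control 2 (0.990) or Myc-depleted 2 with control 1 (0.990). The 2 control arrays correlated at 0.991. The poly-A spike-ins, RNAs added to follow labelling, had a 3′ minus 5′ difference of 3.64 and 1.78 on Myc-depleted 1 and 2, against 1.89 and 3.13 on control 1 and 2, so that arrays of each group stood on both sides. In the cells' own RNA the 3′ minus 5′ difference of Actb was 1.95 and 0.69 on Myc-depleted 1 and 2, against 0.60 and 1.36 on control 1 and 2. That of Gapdh was 0.87 and -0.11, against -0.13 and 0.31. RNA of defining markers of the labelled cells was dim. By immunostaining the paper found SP-C (from Sftpc) and CCA (from Scgb1a1) protein in most colonies after repeated passage. It also describes the RNA of both as unchanged on its arrays. Sftpc, the surfactant gene of alveolar type II cells, was at 4.75 and 4.72 on the Myc-depleted arrays against 4.40 and 4.35 on the control arrays, and Scgb1a1, the club cell secretory gene, at 4.41 and 4.68 against 4.35 and 4.37. Both lay under the low-value threshold, as did the sorted marker Cd34 (3.66 and 3.76 against 3.85 and 3.97), while Epcam, an epithelial adhesion gene, passed it. The collagen gene Col1a2, a gene of fibroblasts, lay at 14.55 and 14.27 on the Myc-depleted and 14.41 and 14.56 on the control arrays, near the highest value of any array (14.6). Whether RNA of the feeder fibroblasts contributed was not tested, and in such bulk samples fewer cells of a type and less RNA per cell cannot be told apart.

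Pdgfra, the receptor chain for Pdgfa and Pdgfc, was read by 3 probe sets. Its brightest probe set, 1421917_at, was at 11.70 and 11.36 on the Myc-depleted arrays, against 10.31 and 10.29 on the control arrays. The control arrays lay close together and both Myc-depleted arrays stood above them, Myc-depleted 1 the higher. The means were 11.53 ± 0.24 in Myc-depleted and 10.30 ± 0.02 in control cells (SD, n = 2 each), with a limma difference of 1.23 (SE 0.16, 95% interval 0.78 to 1.68), a 2.34-fold excess with an interval from 1.71 to 3.20. The adjusted p was 0.282 and the unadjusted p 0.00162 in limma.

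The other Pdgfra probe sets gave like values. Probe set 1438946_at was at 8.98 and 8.87 on the Myc-depleted arrays, against 7.62 and 7.91 on the control arrays, with a difference of 1.16 (SE 0.15, limma adjusted p = 0.284). Probe set 1421916_at was at 8.63 and 8.84 on the Myc-depleted arrays, against 7.94 and 7.52 on the control arrays, with a difference of 1.01 (SE 0.20, limma adjusted p = 0.356). Neither overlapped between groups, and every Myc-depleted array exceeded every control array by 0.69 to 1.41 over the 3 probe sets. Of the 27022 probe sets tested, 0.389% had a larger positive difference than 1421917_at, 0.455% than 1438946_at and 0.707% than 1421916_at. Probe sets of a gene are readings of the same RNA and not replicates. Between the arrays with the larger spike-in difference (Myc-depleted 1 and control 2) the 3 probe sets differed by 1.11, 1.41 and 1.07 in the order 1421916_at, 1421917_at and 1438946_at, and between those with the smaller (Myc-depleted 2 and control 1) by 0.91, 1.05 and 1.25. Without Myc-depleted replicate 2 or control replicate 2 the difference of 1421916_at was 0.90 or 0.80, which is under a 2-fold excess.

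Pdgfrb, the receptor chain for Pdgfb and Pdgfd, was read by 2 probe sets that differed in how well they separated the groups. Probe set 1436970_a_at was at 12.96 and 12.75 on the Myc-depleted arrays, against 12.33 and 12.50 on the control arrays. Both Myc-depleted arrays stood above both controls by a margin smaller than that of Pdgfra, with means of 12.85 ± 0.15 and 12.41 ± 0.12 (SD, n = 2 each) and a limma difference of 0.44 (SE 0.15, 95% interval 0.04 to 0.84, adjusted p = 0.467, unadjusted p = 0.0387), a 1.36-fold excess. Probe set 1417148_at was at 11.10 and 10.46 on the Myc-depleted arrays, against 10.14 and 10.60 on the control arrays. Here Myc-depleted 2 lay below control 2, so the groups overlapped, and the difference of 0.41 (SE 0.30, 95% interval -0.42 to 1.24, limma adjusted p = 0.725) was of the order of the spread within a group (SD 0.45 in Myc-depleted and 0.32 in control cells). Between the arrays with the larger spike-in difference it was 0.50, and between those with the smaller 0.32. That value rested on single arrays, being 0.09 without Myc-depleted replicate 1, 0.18 without control replicate 1, 0.64 without control replicate 2 and 0.73 without Myc-depleted replicate 2. On this probe set Myc-depleted 1 and control 2, the arrays with the larger spike-in difference, were both higher than the others, by 0.55 on average. The part of RNA or labelling quality in it was not tested.

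Pdgfc, a ligand of Pdgfra that is secreted in a latent form, was lower on both Myc-depleted arrays by either of its probe sets. Probe set 1419123_a_at was at 10.51 and 10.64 on the Myc-depleted arrays, against 11.17 and 11.19 on the control arrays. Every Myc-depleted array lay under every control array by at least 0.53, more than the distance between arrays of a group. The means were 10.57 ± 0.09 and 11.18 ± 0.01 (SD, n = 2 each) in Myc-depleted and control cells, with a limma difference of -0.60 (SE 0.12, 95% interval -0.93 to -0.28, adjusted p = 0.356, unadjusted p = 0.00684).

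Probe set 1449351_s_at of Pdgfc, whose suffix marks probes that may be shared between transcripts, was at 9.61 and 9.64 on the Myc-depleted arrays, against 10.08 and 10.22 on the control arrays. The groups again did not overlap, and the difference was -0.52 (SE 0.12, 95% interval -0.85 to -0.19, limma adjusted p = 0.385, unadjusted p = 0.0120). Of all probe sets tested, 3.26% had a larger negative difference than 1419123_a_at and 4.86% than 1449351_s_at. The differences between the arrays with the larger spike-in difference were -0.68 and -0.60, and between those with the smaller -0.53 and -0.44, in the order 1419123_a_at and 1449351_s_at.

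Pdgfa, the other ligand of Pdgfra measured above the threshold, showed no difference that exceeded its error. Probe set 1449187_at was at 9.49 and 9.46 on the Myc-depleted arrays, against 9.56 and 9.57 on the control arrays. The groups did not overlap, yet the 4 values spanned only 0.11, and the limma difference of -0.09 had a 95% interval from -0.39 to 0.21 (adjusted p = 0.860). Probe set 1418711_at was at 9.31 and 8.93 on the Myc-depleted arrays, against 8.89 and 9.34 on the control arrays. Arrays of the groups interleaved, the difference was 0.00 with a 95% interval from -0.64 to 0.65 (limma adjusted p = 0.998), and its sign turned with the arrays left out. As with 1417148_at of Pdgfrb, its 2 higher arrays were those with the larger spike-in difference, by 0.41 on average. The part of RNA or labelling quality in it was not tested. No other tested Pdgf probe set had both of these arrays above both others.

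Pdgfb and Pdgfd, the ligands that can act on Pdgfrb, were not tested because all of their probe sets lay under the low-value threshold, where background light compresses differences. Probe set 1450413_at of Pdgfb was at 4.58 and 4.58 on the Myc-depleted arrays, against 4.35 and 4.51 on the control arrays, and 1450414_at was at 5.02 and 5.01, against 5.04 and 4.72. The groups overlapped on the second of these and not on the first. The 3 probe sets of Pdgfd lay between 3.64 and 4.45 on the Myc-depleted and between 3.77 and 4.37 on the control arrays, with differences of -0.13 (1426319_at), 0.11 (1446691_at) and 0.00 (1456532_at), and the groups of the last 2 overlapped. These values set no limit on what little Pdgfb or Pdgfd RNA the cells held.

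Over the 9 tested Pdgf probe sets, 0 were called at an adjusted p under 0.05 in limma, against 0.0% of the 27022 probe sets tested, and the smallest adjusted p was 0.282 among them and 0.110 overall. An unadjusted p under 0.05 was reached by 6 of the 9, against 10.1% of all probe sets in either direction. A fold above 2 together with an unadjusted p under 0.05, the thresholds of the study, was met by 3 of the 9 in the higher direction, all of them Pdgfra, against 0.651% of all, and by 0 in the lower direction, against 0.518%. That count was 2 when either replicate 2 of the Myc-depleted or replicate 2 of the control arrays was left out. The groups did not overlap with Myc-depleted higher for 4 of the 9 (Pdgfra and 1436970_a_at of Pdgfrb), against 22.5% of all, and with Myc-depleted lower for 3 (Pdgfc and 1449187_at of Pdgfa), against 18.5%. The median difference of all probe sets tested was 0.00. Since several of the 9 read the same RNA, these counts describe 4 genes.

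**Figure D2:**
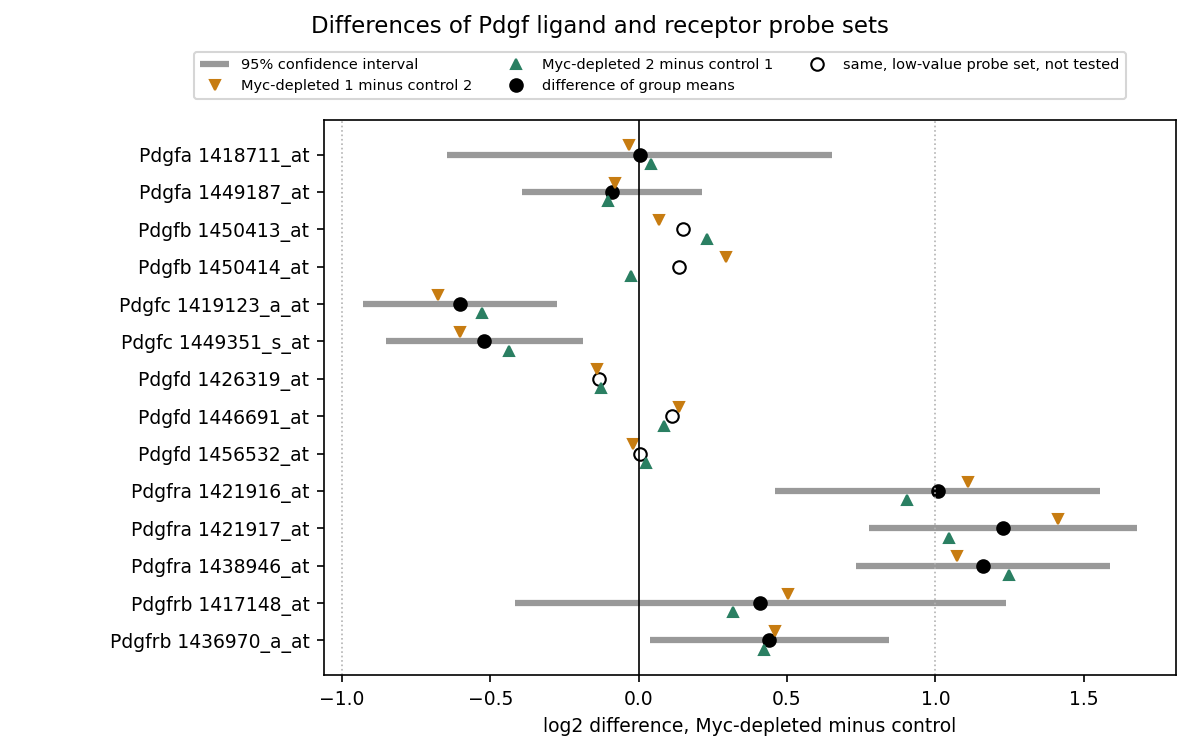
Log2 difference, Myc-depleted minus control (horizontal axis), of each Pdgf probe set, with the limma estimate as a filled circle and its 95% confidence interval as a grey bar, and with untested low-value probe sets as open circles. Triangles give the difference between the arrays with the larger (orange, pointing down) and with the smaller spike-in difference (green, pointing up), and dotted lines mark a fold of 2. The intervals of Pdgfra (lowest bound 0.46) and of Pdgfc (highest bound -0.19) lie clear of 0.

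The balance between ligand and receptor was compared as the log2 ratio of genes within an array, where scaling of a whole array cancels. The size of such a ratio depends on how well each probe set binds, so only its difference between arrays has a meaning, and it shows unequal change without saying which gene moved. With the brightest probe set of each gene, Pdgfc minus Pdgfra was -1.19 and -0.72 on the Myc-depleted arrays, against 0.86 and 0.90 on the control arrays. The groups did not overlap and differed by -1.83, a 3.56-fold shift away from the ligand. The shift was -1.69 with the mean of all tested probe sets of each gene.

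The other ratios moved by less. Pdgfa minus Pdgfra was -2.21 and -1.90 on the Myc-depleted arrays, against -0.75 and -0.72 on the control arrays, a difference of -1.32. Pdgfra minus Pdgfrb was -1.26 and -1.39 on the Myc-depleted arrays, against -2.02 and -2.21 on the control arrays, a difference of 0.79 or a 1.73-fold shift towards Pdgfra. Pdgfc minus Pdgfa was 1.02 and 1.18 on the Myc-depleted arrays, against 1.61 and 1.62 on the control arrays, a difference of -0.51. The groups did not overlap in any of the 4 ratios, against 22.5% of single probe sets tested in the higher direction and 18.5% in the lower. Each ratio holds Pdgfra or Pdgfc, whose own groups were apart. In the exact two-sided permutation test each had p = 0.333, the smallest that 6 arrangements of 4 arrays allow, and no ratio can pass a threshold of 0.05 in this design.

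**Figure D3:**
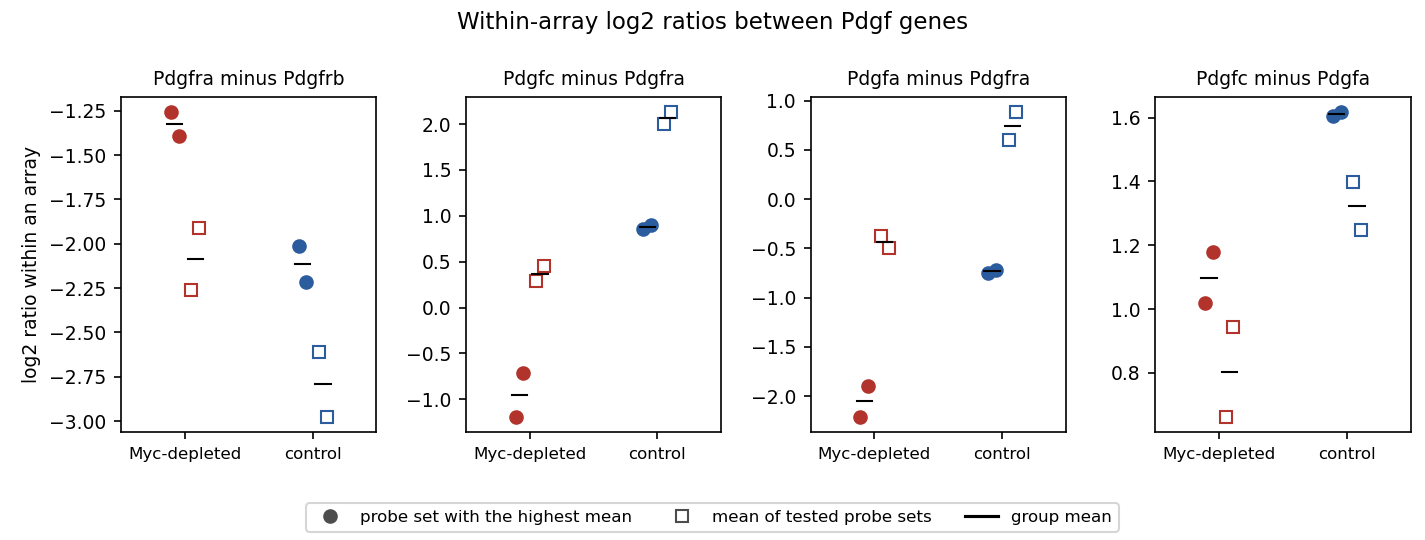
Log2 ratio of 2 Pdgf genes within each array (vertical axis, a scale of its own in each panel) for Myc-depleted arrays in red and control arrays in blue, with filled circles for the brightest probe set of each gene, open squares for the mean of its tested probe sets and black lines for group means. The groups are apart in every panel by either representation, and every panel holds Pdgfra or Pdgfc. They lie furthest apart in Pdgfc minus Pdgfra, where the filled circles differ by -1.83.

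The genes whose values over the 4 arrays ran most like those of each Pdgf gene were found by the Euclidean distance between values centred on the mean of each probe set, over 12588 other genes with a tested probe set. Slc45a3 (distance 0.08), a transporter of the solute carrier family, Man1a (0.09), a mannosidase of glycoprotein processing, Mettl24 (0.13) and Abi3bp (0.13), an extracellular matrix protein, lay nearest to Pdgfra, whose own distance from a flat line was 1.25. Their differences were 1.23, 1.25, 1.11 and 1.17, and the same 4 genes were nearest after quantile scaling. For Pdgfc (0.61 from a flat line) the nearest were the replication helicase subunit Mcm3 (0.05, difference -0.55), the NAD synthesis enzyme Nampt (0.06, -0.63), the pyrophosphate transporter Ank (0.06, -0.59) and the spermidine synthase Srm (0.07, -0.60), of which 2 were also nearest after quantile scaling. For Pdgfrb (0.48 from a flat line) they were Mxra8 (0.01, difference 0.44), Polr3gl (0.02, 0.46), Abca9 (0.03, 0.43) and the collagen gene Col4a5 (0.04, 0.47), of which 2 were shared. Pdgfa was nearly flat (0.09), and its nearest genes Tmem217, C030023E24Rik, Prpsap1 and Srp72 differed by -0.08 to -0.09. With 4 arrays many genes can run alike, and likeness is given here as a description.

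The proteases and receptors that surround Pdgf showed values on both sides. In the list of proteases that activate Pdgf ligands and their inhibitors, 7 of 11 genes were tested, with 4 above and 3 below 0 and a median difference of 0.07, beside a median of 0.02 over the 12589 genes tested with 1 probe set each. An unadjusted p under 0.05 was reached by 1 in the higher direction, against 6.96% of those genes, and by 0 in the lower direction, against 5.23%. That gene was Plat, the tissue plasminogen activator that cuts latent Pdgfc, with 9.999 and 10.04 on the Myc-depleted arrays against 9.62 and 9.51 on the control arrays. Its groups did not overlap, with a difference of 0.46 (another probe set 0.11) and a limma adjusted p of 0.400. Furin differed by -0.11, the convertase gene Pcsk6 by 0.40, and the neuroserpin gene Serpini1, whose product inhibits tissue plasminogen activator, by 0.42. Plaur, the urokinase receptor gene, had the largest difference of the list in size, -0.55, with overlapping groups. Pcsk6 was 0.12 without Myc-depleted replicate 2 and Plaur -0.12 without Myc-depleted replicate 1. Plau, the urokinase gene, lay under the threshold.

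Of 10 co-receptors and extracellular binding proteins 9 were tested, and 7 of them lay below 0, with a median of -0.13. Their groups did not overlap in the lower direction for 4, against 20.8% of all genes, and in the higher direction for 0, against 26.6%. Neuropilin 1 (Nrp1), a co-receptor of Pdgf and Vegf ligands, had an unadjusted p of 0.0328 in limma and a difference of -0.39, with its other probe sets between -0.87 and -0.55. Nrp2 differed by -0.31 and caveolin 1 (Cav1) by -0.22. Lrp1, an endocytic receptor that binds Pdgfrb, differed by 0.38 with overlapping groups, and by 0.80 on another probe set.

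The list of other class III receptors, which share the Pdgf receptor fold, their ligands and the related Vegf family was split evenly, with 6 of 12 tested genes above 0 and a median of 0.01. Vegfd, a ligand of Flt4 in lymphatic growth, was at 11.30 and 11.19 on the Myc-depleted arrays, against 10.19 and 10.36 on the control arrays. Its groups were well apart, with a difference of 0.97 (others of its probe sets 0.85 and 0.97, limma adjusted p = 0.292). Flt4 differed by 0.87 (another probe set 0.14) and the placental growth factor gene Pgf by -0.65, and Vegfb by -0.27. Kit, the receptor of stem cell factor, lay under the threshold.

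Genes that carry the signal inside the cell differed by less than Pdgfra. Of 34 adaptors and relays 28 were tested, with 16 above 0 and a median of 0.13, and groups that did not overlap for 9 in the higher direction, against 26.6% of all genes, and for 3 in the lower direction, against 20.8%. The transcription factors Stat6 and Stat5b, which are phosphorylated downstream of receptors, differed by 0.62 (another probe set 0.32) and 0.36 (another 0.17), the adaptor Shc1 by 0.32 (another -0.05) and the kinase subunit Pik3cb by -0.60. An unadjusted p under 0.05 in limma was reached by 2 of the 28 in the higher direction (Stat6 and Stat5b), against 6.96% of all genes, and by 1 in the lower (Pik3cb), against 5.23%. Of 16 negative regulators 14 were tested, with a median of -0.06 and groups that did not overlap for 4 in the lower direction, against 20.8% of all genes, and for 0 in the higher direction, against 26.6%. They included the Cbl-binding adaptor Sh3kbp1 (-0.53, other probe sets -0.76 to -0.06), the Ras inhibitor Rasa1 (-0.42, others -0.85 to -0.49), the feedback inhibitor Spry2 (-0.26) and the ubiquitin ligase Cbl (-0.21). None of the genes in these lists was called (0 at an adjusted p under 0.05, against 0.0% of the 12589 genes).

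Early genes that fibroblasts are known to induce on Pdgf treatment had a median difference of -0.22 over 22 tested of 24 genes, with 16 below 0, beside 46.0% of all genes. The list holds Myc, the gene that was targeted, which was its only gene past a fold of 2 with an unadjusted p under 0.05, against 0.699% of all genes in the lower direction. Sphk1, the sphingosine kinase, was at 8.42 and 7.54 on the Myc-depleted arrays, against 6.85 and 7.12 on the control arrays. Its difference of 0.99 (limma adjusted p = 0.484) ran opposite to most of the list, and Myc-depleted 1 stood far above the other arrays. The chemokine gene Ccl2 differed by -0.43 and Ier3 by -0.44. The 3 Egr genes, immediate early transcription factors, differed by -0.82 (Egr1), -0.98 (Egr2) and -0.80 (Egr3, another probe set 0.07), with overlapping groups for Egr1 and Egr3. The size of these differences, though not their sign, depended on single arrays. With an array left out they ran from -1.52 to -0.13 for Egr1, from -1.51 to -0.46 for Egr2 and from -1.38 to -0.23 for Egr3. Each was nearest 0 without a replicate 2 array. A fit with the spike-in difference as a covariate gave -0.98 (Egr1), -1.11 (Egr2) and -0.93 (Egr3), with 1 residual degree of freedom. Fos, another immediate early factor, differed by 0.64 with overlapping groups, and by -0.66 without Myc-depleted replicate 1. No Pdgf stimulation was part of the design.

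**Figure D4:**
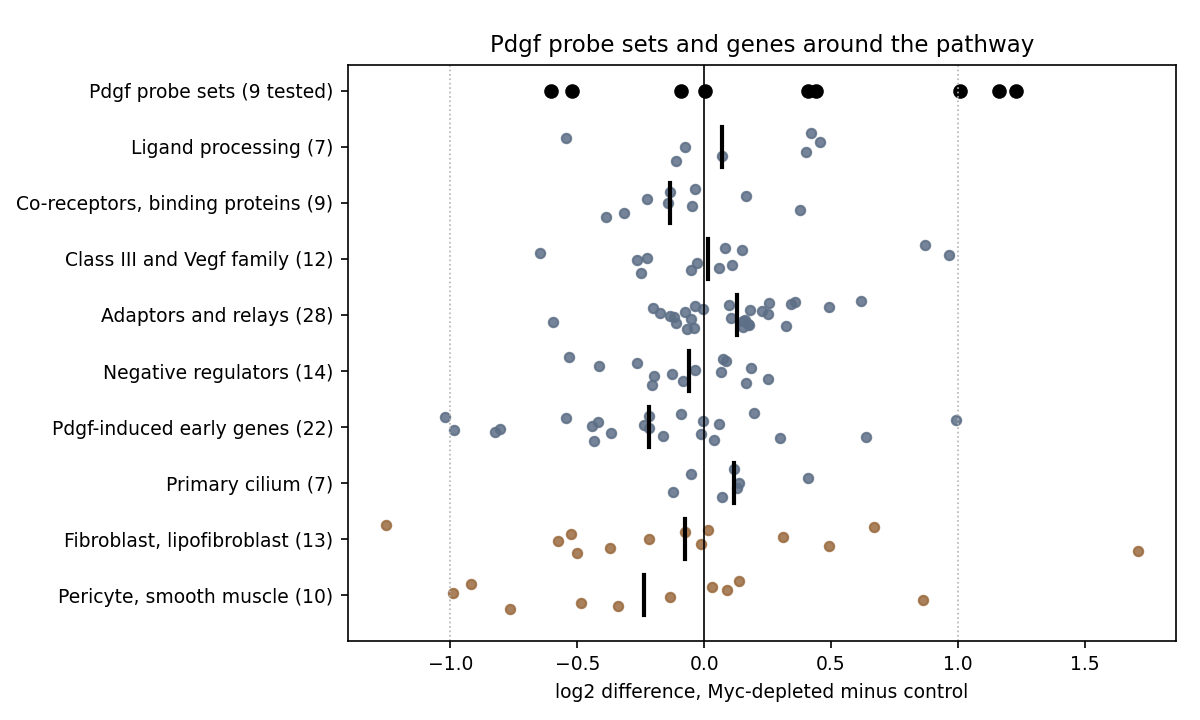
Log2 difference, Myc-depleted minus control (horizontal axis), of the 9 tested Pdgf probe sets (black) and of the tested genes of 7 pathway lists (grey) and 2 marker lists (brown), each gene by its brightest probe set, with vertical bars at list medians, tested genes in parentheses and dotted lines at a fold of 2. The Pdgfra values of 1.01 to 1.23 lie beyond the highest gene of every pathway list (Sphk1 at 0.99), while among marker genes Lpl lies further out at 1.71.

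Markers of the mesenchymal cells that carry Pdgf receptors were set beside the receptor values, with their part in those values not tested. Of 21 markers of Pdgfra-positive fibroblasts and lipofibroblasts, 1 of which is not analysed here, 13 were tested, 5 above and 8 below 0, with a median of -0.07 and 3 genes in each direction with an unadjusted p under 0.05, against 6.96% of all genes higher and 5.23% lower. Their summed level, as log2 of the summed linear values, was 15.70 and 15.31 on the Myc-depleted arrays, against 15.46 and 15.68 on the control arrays, and so overlapped between groups. Most of that sum was the collagen genes Col1a2, Col3a1 and Col1a1, with Col1a2 at 14.55 and 14.27 against 14.41 and 14.56. It therefore says little of the other fibroblast and lipofibroblast markers. Lpl, the lipoprotein lipase gene of lipofibroblasts, was at 11.98 and 11.38 on the Myc-depleted arrays, against 9.95 and 9.99 on the control arrays, a difference of 1.71 (another probe set 1.62, limma adjusted p = 0.292). It was the only marker of this list past a fold of 2 with an unadjusted p under 0.05 in the higher direction, against 0.913% of all genes, as Thy1 was in the lower, against 0.699%. The proteoglycan gene Dcn was at 6.02 and 6.08 against 5.40 and 5.37, close above the low-value threshold, a difference of 0.67 (limma adjusted p = 0.332). Both ran in the direction of Pdgfra, as did Pparg, the adipogenic nuclear receptor, at 0.49, whereas other markers ran against it. Thy1, a surface marker of fibroblasts, was at 4.68 and 4.75 on the Myc-depleted arrays, against 6.02 and 5.92 on the control arrays, a difference of -1.25 (limma adjusted p = 0.263) with the Myc-depleted values under the low-value threshold. The lipid droplet gene Plin2 differed by -0.50 and Fabp4 by -0.37 (other probe sets -0.12 and -0.08). Both had an unadjusted p under 0.05 in limma. Npnt differed by -0.58 without overlap and Col1a1 by -0.52 with overlapping groups. Tcf21, Cd34, Pi16, Lum and 3 others lay under the threshold.

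Of 14 markers of Pdgfrb-positive pericytes and smooth muscle 10 were tested, 4 above and 6 below 0, with a median of -0.24. Their summed level was 14.34 and 14.64 on the Myc-depleted arrays, against 14.85 and 14.77 on the control arrays. It was thus lower in Myc-depleted cells without overlap, opposite to the brighter Pdgfrb probe set. Most of that sum was the contractile gene Acta2, at 14.01 and 14.24 against 14.28 and 14.24, a difference of -0.13 (limma adjusted p = 0.820). The sum therefore says little of the other markers. Cspg4, the NG2 proteoglycan of pericytes, was at 6.85 and 6.58 on the Myc-depleted arrays, against 7.50 and 7.45 on the control arrays, a difference of -0.76 on both of its probe sets (limma adjusted p = 0.350). The contractile gene Tagln differed by -0.99, the adhesion gene Mcam by -0.48 and the pericyte receptor Notch3 by 0.86. Notch3 was 0.30 without Myc-depleted replicate 1 and 1.43 without Myc-depleted replicate 2, and Mcam -0.26 without control replicate 1. Abcc9, Kcnj8, Higd1b and Trpc6 lay under the threshold. The endothelial markers Pecam1 and Cdh5 lay under it as well, and 4 of 12 endothelial markers were tested, with a median of 0.06 and a summed level of 7.60 and 7.60 on the Myc-depleted against 7.65 and 7.51 on the control arrays.

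Lung epithelial markers, from the cell type the label names, were mostly dim. Of 16 markers 4 were tested, 3 above and 1 below 0, with a median of 0.31 and a summed level of 8.86 and 8.56 on the Myc-depleted arrays, against 8.31 and 8.19 on the control arrays. That sum was higher in Myc-depleted cells without overlap. So was that of the 2 tested of 6 mesothelial markers (7.56 and 7.22 against 7.18 and 6.70), though each of these 2 genes overlapped between groups. Krt19, a keratin gene on both lists and so in both sums, differed by 0.58 with overlapping groups, and by 0.24 without control replicate 2. Epcam was at 7.80 and 7.52 on the Myc-depleted arrays, against 6.89 and 7.12 on the control arrays, a difference of 0.65 (limma adjusted p = 0.400, unadjusted p = 0.0173). The epithelial genes Cdh1, Krt8 and Krt18 lay under the threshold, as did Nkx2-1, Sftpc and Scgb1a1. Whether a shift in the kinds of cells present bears on the Pdgf values was not tested.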

How the data were processed

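The deposited log2 values of 4 Affymetrix arrays were used. The authors' methods name Robust Multichip Average normalization and log2 conversion in Partek Genomics Suite 6.4, while the submitters' processing notes name Partek 6.4 and GCRMA. Which of these made the values was not settled, and it matters most for low values. Of 45101 probe sets 64 controls were left out. Probe sets with a mean under the 40th percentile (log2 5.08) were not tested, which left 27022. Groups were compared by the lmFit and eBayes functions of limma 3.58.1 under R 4.3.3, with 2 residual and 2.02 prior degrees of freedom, and p-values were adjusted after Benjamini and Hochberg over all probe sets tested. Precision is limited by having 2 arrays a group. The code was tested on simulated data.

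Gene names came from the platform annotation, and 0 probe sets with several symbols included a Pdgf gene. A gene in a list was represented by whichever of its tested probe sets was brightest on average over 4 arrays. The Pdgf genes, gene lists and comparisons were chosen with earlier results of these data known. Named were every Pdgf probe set, Myc, up to 4 genes per list with the smallest p and others needed to describe it, and the 4 genes nearest to each Pdgf gene. Alternatives covered the filter, scaling, floor, variance trend, the methods' ANOVA, the replicate block, a spike-in covariate, the probe set per gene and each array left out. Deviations of same-numbered arrays from their group means correlated at -0.77 over 27022 probe sets, so the numbers did not pair the arrays. Promoter windows came from RefSeq (GRCm38.p6). The series files name no genome build, and no probe coordinates are given.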

Additional observations from a re-analysis of the deposited data

How the results depend on the processing

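The differences of the Pdgfra, Pdgfc and Pdgfrb probe sets and of 1449187_at of Pdgfa kept their sign under each alternative run. Leaving out each array in turn gave 0.80 to 1.22 (1421916_at), 1.06 to 1.40 (1421917_at) and 1.02 to 1.30 (1438946_at) for Pdgfra, -0.67 to -0.54 (1419123_a_at) and -0.59 to -0.45 (1449351_s_at) for Pdgfc, and 0.09 to 0.73 (1417148_at) and 0.33 to 0.55 (1436970_a_at) for Pdgfrb. Pdgfa 1418711_at, near 0 throughout, ran from -0.22 to 0.23 with an array left out, and was -0.22 without control replicate 1, -0.18 without Myc-depleted replicate 1 and -0.0479 with the spike-in covariate. That covariate, taken from the spike-ins added to follow labelling, left 1 residual degree of freedom, so its calls are a description. Its fit called 3224 of the 27022 probe sets tested, among them 6 of the 9 Pdgf probe sets. Their values were then 1.05, 1.20 and 1.14 for Pdgfra (limma adjusted p = 0.00684, 0.0044 and 0.0046, in the order above), -0.59 and -0.52 for Pdgfc (0.0198 and 0.0296) and 0.41 for 1436970_a_at of Pdgfrb (0.046). For 1417148_at of Pdgfrb it gave 0.34 (adjusted p = 0.0776). A further 52 named genes, many of them named for a small p, were followed through the alternatives. They leave out the genes nearest to Pdgfa and markers given by level only. The covariate fit called 18 of them higher and 17 lower, while the other alternatives called none (0). The sign turned for 1 gene, Fos, which was -0.66 without Myc-depleted replicate 1 and up to 1.94 without Myc-depleted replicate 2. Without the covariate 0 of 27022 were called, with 2726 at an unadjusted p under 0.05. The methods' ANOVA also called 0 after adjustment. Past both a fold of 2 and the unadjusted threshold of 0.05 were 316 probe sets in limma and 207 in the methods' ANOVA (119 higher and 88 lower), and leaving out an array gave 290 to 830, the most (342 higher and 488 lower) without Myc-depleted replicate 2, beside 566 (183 higher and 383 lower) when Myc-depleted replicate 1 was the array left out. The replicate block gave 0 calls and 306 probe sets past these thresholds, 3 of them Pdgfra, and left the Pdgf differences as they were (1.23 for 1421917_at). A crossed pairing of the numbers, added after seeing the data, gave 21 calls, 0 of them Pdgf. In fits without an array, a group with a single array is assumed to vary like the other group.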

Other observations

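Of 8 genes that assemble the primary cilium, the organelle at which Pdgfra signals in resting fibroblasts, 7 had a probe set naming a single gene. All 7 were tested, with 5 above 0 and a median difference of 0.12. Groups did not overlap for 2 of them in the higher direction, against 26.6% of all genes. Of these 7 genes 0 were called in limma and 0 had an unadjusted p under 0.05. Leukocyte and macrophage markers were tested for 5 of 10 genes, with Ptprc (CD45, against which the cells were sorted) under the threshold at 4.48 and 4.25 on the Myc-depleted and 4.20 and 4.28 on the control arrays. Their summed level was 9.60 and 10.27 on the Myc-depleted arrays, against 10.08 and 9.64 on the control arrays.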
